A study of Homo sapiens with 4 samples.

Results

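The IGF2BP2 peaks on 10 genes of DEAD and DEAH box RNA helicases in Jurkat cells are described here: DHX9, DDX5, DDX17, DDX3X, DDX21, DDX39B, DHX15, DDX6, DDX1 and DHX30. The genes are a fixed list of family members that was drawn up with earlier results of these data known, so their counts are descriptions, and the other members of the families are given at the end. A peak was counted for a gene when it carried the Ensembl identifier of that gene and lay on the sense strand of its exons or introns. All 10 identifiers were found, and each lay at the gene's position in GRCh38. They are 10 of 20428 identifiers with a sense peak in either replicate, and of 12663 identifiers that could be named as protein-coding genes. The helicases held 72 of 74237 sense peaks in replicate 1 and 87 of 77288 in replicate 2.

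DEAD and DEAH box helicases are RNA-dependent ATPases, named after a short amino acid motif, that open RNA duplexes and remodel complexes of RNA and protein. They act at nearly every step in the life of an mRNA, from transcription and splicing through export and translation to decay, and some act in the making of ribosomes. IGF2BP2 is an RNA-binding protein of the cytoplasm that reads the N6-methyladenosine mark and is known for stabilising the mRNAs it binds.

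IGF2BP2 was precipitated with an anti-IGF2BP2 antibody from Jurkat cells, a human line of T-cell acute lymphoblastic leukemia (T-ALL), after crosslinking with UV light, and the bound RNA was sequenced (iRIP-seq). The cells carried no label of a genetic change or treatment. There were 2 iRIP libraries, called replicates here, and 2 input libraries, which were not analysed here. The labels do not say whether the replicates came from separate cultures, so their spread may be technical.

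A peak is a run of 50-nt bins along the genome, and its height is given in tags. For a peak of several bins the height times the number of bins was whole, as for a mean over the bins, so some heights are fractions. Replicate 1 lists peaks from 4 tags upward, and replicate 2 from 5. How deeply each library was sequenced is unknown, so no height was adjusted for depth, and heights are set side by side only as listed. RNA levels of the genes were not analysed here, and the part of expression in the counts below was not tested. Only uniquely mapped reads were kept, so any read that mapped equally well to a close relative would be missing from these values. Such relatives are DDX5 and DDX17, DDX39B and DDX39A, and DDX3X and its copy on the Y chromosome. How many reads were lost in this way was not measured.

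Of the markers of a T cell line, 8 of 10 could be named and 6 had a sense peak in both replicates, among them CD3E, CD3D, LCK, ZAP70 and PTPRC with overlapping peaks. Of the B cell markers 2 of 3 could be named, and of the myeloid markers 1 of 3, and none of these had a peak in both replicates. MS4A1, CD79A and MPO each had a single peak of 5 tags in replicate 2. LYZ and CD14 had no peak of either strand, and a gene without a sense peak could not be named. A peak in both replicates was found on 68.8% of all named genes, so 6 of 8 T cell markers with peaks is near the background. An overlapping pair was found on 23.7% of all named genes and on 5 of the 8 T cell markers. The named genes as a whole had a median of 2 sense peaks in each replicate.

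The letters under the peaks can be given only at gene starts and small RNAs, where a RefSeq table (GRCh38.p14) holds them. The pieces below are shown because helicase peaks lie on them in 1 or both replicates. Each piece near a gene start is 30 bases of the sense strand in lower case, with any GGAN, the motif searched for, in capitals. The microRNA has its seed, bases 2 to 8, in capitals.
DDX21, chr10:68956170-68956199, plus strand, under a peak in both replicates: ctcttcctctccacgcggttgagaagaccg
DDX3X, chrX:41334162-41334191, plus strand, under a peak in both replicates: agagccgcagttctcccgtgagagggcctt
DDX5, chr17:64506510-64506539, minus strand, upstream of the RefSeq start at 64506289 and under a peak in replicate 1: ttgaggtgtGGAAagaccagaagaaggtga
hsa-miR-5047, chr17:64501230-64501250, minus strand, inside DDX5 under a peak in replicate 1: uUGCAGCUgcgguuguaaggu

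GGAN was searched for on the sense strand of the printed gene start pieces, and occurrences were allowed to overlap. It was found there in the DDX5 piece and not in those of DDX21 and DDX3X. Only the pieces of all start windows were also searched on the other strand. Among 351160 pieces of 30 bases from all RefSeq start windows, 43.0% held GGAN on the sense strand and 70.5% on either strand, so that a match in 1 such piece is common. The DDX21 and DDX3X pieces begin at a RefSeq start. The first 30 bases from the start held GGAN on the sense strand in 46.5% of all windows. A match is a description of letters and not a binding site.

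All 10 helicases had a sense peak in both replicates, where 68.8% of all named genes did. At least 1 pair of overlapping peaks was found on 8 of the 10 helicases, against 23.7% of the named genes. DDX6 and DDX1 had none. High peaks, of 10 tags or more, stood in both replicates on 3 helicases, DDX17, DDX21 and DHX15, against 5.93% of the named genes. In replicate 1 a high peak was found on 4 helicases and in replicate 2 on 7, where 6.78% and 15.6% of the named genes had one. Of the single peaks, 6.94% and 16.1% were high on the helicases, against 3.23% and 10.1% on the named genes. The median number of sense peaks per helicase was 7 in replicate 1 and 7.5 in replicate 2, against 2 in each for the named genes. The shares of genes above were not adjusted for the number of peaks per gene. Per 10 kb of gene the median was 1.86 and 2.34 peaks, against 0.456 and 0.454 for the named genes. DDX6 lay below the medians of the named genes in replicate 1 and close to them in replicate 2. The median of the highest peak was 7.5 and 14.5 tags on the helicases and 5 and 6 tags on the named genes. Across the 10 genes, Spearman's rho between the replicates was 0.79 for the number of peaks and 0.51 for the highest peak, as a description over genes that share both libraries.

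**Figure D1:**
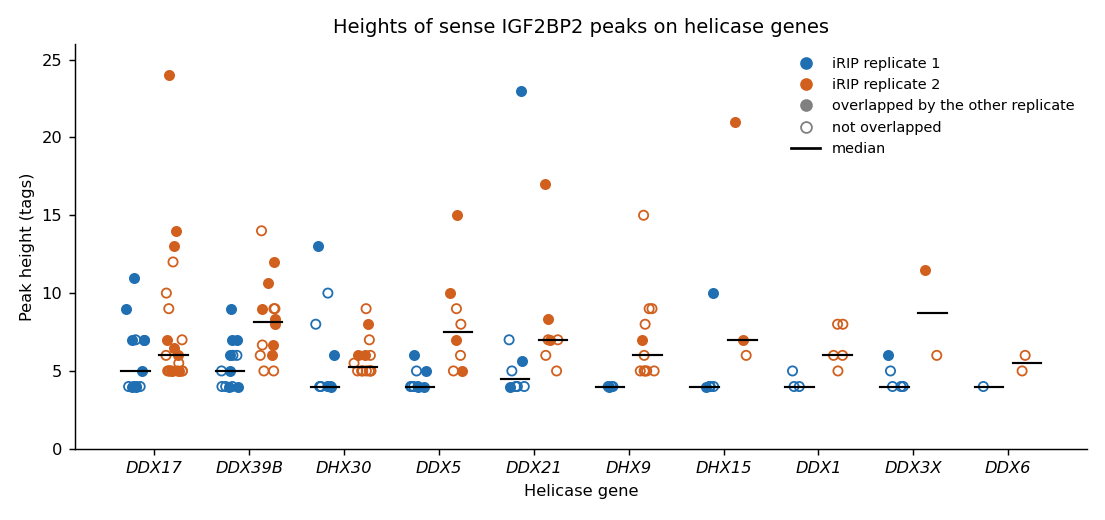
Height in tags of every sense peak on the 10 helicase genes, in iRIP replicate 1 (blue) and replicate 2 (orange), with points shifted sideways for sight, filled where the other replicate has an overlapping peak, and a black bar at the median. DDX17 reaches 24 tags in replicate 2 and DDX21 23 tags in replicate 1, while no peak of DDX6 or DDX1 is filled.

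DDX17 and DDX5 are close paralogs that act as coregulators of transcription and splicing and assist the Drosha complex in microRNA processing. DDX17 held the most peaks of the helicases over both replicates, 13 in replicate 1 and 21 in replicate 2, of which 8 overlapped the other replicate in each. Heights ran from 4 over a median of 5 to 11 tags in replicate 1 and from 5 over a median of 6 to 24 tags in replicate 2. As many peaks or more were found on 7.46% and 3.88% of the named genes. The peaks lay along the whole gene, with 7 and 10 in CDS, 2 and 3 in the 3′ UTR, 0 and 4 in noncoding exons and 4 and 4 in introns by their main region. Some of the intron peaks reached into an exon, and 11 of 13 and 20 of 21 peaks held exon bases.

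The highest shared peak of DDX17 was at chr22:38498400-38498450 with 11 and 24 tags. It lay across an exon and intron edge, with 22% of its length in coding sequence (CDS) and 78% in intron. In replicate 1, 1.98% of all sense peaks were as high, and in replicate 2 0.556%. Peaks of 5 and 7 tags at chr22:38498500-38498550 and of 7 and 13 tags at chr22:38498100-38498150, with 1 bin more in replicate 2, stood beside it. At the start of the gene, a pair of CDS peaks 336 nt and less from the RefSeq start had 4 tags each in replicate 1 and 14 and 5 tags in replicate 2. DDX17 also had 2 peaks of at least 10 tags in replicate 2 without a partner in replicate 1. One of 10 tags lay at chr22:38487850-38487900, with a fraction of 0.56 in CDS. The other, of 12 tags at chr22:38494600-38494650, was mainly noncoding exon.

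DDX5 is the shortest of the 10 genes, at 8.613 kb, and held 9 and 8 peaks, or 10.4 and 9.29 per 10 kb. As dense or denser were 2.42% and 4.12% of the named genes. Every DDX5 peak in both replicates lay wholly in exons. Of these, 4 and 4 were CDS, 3 and 3 noncoding exon, 1 and 1 3′ UTR, and a single 5′ UTR peak stood in replicate 1. In both replicates 4 peaks were shared. The highest, at chr17:64504200-64504300, had 6 and 15 tags and was 79% CDS and 21% noncoding exon. A shared peak at chr17:64502400-64502450 had 5 and 10 tags and was 44% CDS and 56% 3′ UTR by the annotation. Both shared peaks were higher in replicate 2. Peaks of replicate 2 with CDS bases also lay further along the gene, at chr17:64502150-64502200 and chr17:64500200-64500250.

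The DDX5 gene also hosts microRNAs. A noncoding exon peak of 4 tags in replicate 1, at chr17:64501200-64501250, covered all 21 bases of the mature miR-5047 printed above. Replicate 2 had no peak there, and its nearest lay 838 nt from the hairpin. The hairpin of MIR3064, further along the same gene, was under no peak in either replicate, with the nearest 362 nt away. The 5′ UTR peak over the printed DDX5 piece, at 4 tags, was likewise not seen in replicate 2. This peak lay inside the gene, 341 nt from its outermost RefSeq start at 64506866. The start at 64506289, named with the printed piece, is another one further in.

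DHX9, or RNA helicase A, unwinds long RNA duplexes and links transcription to RNA processing. Its number of peaks differed between the replicates by the widest ratio of the 10 genes, with 4 against 11. All 4 peaks of replicate 1 were at the lowest height of 4 tags, and those of replicate 2 ran from 5 over a median of 6 to 15 tags. The only shared peak, in CDS at chr1:182858550-182858600 in replicate 1 and 50 nt longer in replicate 2, had 4 and 7 tags. The peak of 15 tags in replicate 2, at chr1:182858700-182858750, lay close after it with a fraction of 0.36 in CDS and 0.64 in intron, and replicate 1 had none there. Of the 11 peaks in replicate 2, 8 crossed an exon and intron edge, against 1 of 4 in replicate 1.

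**Figure D2:**
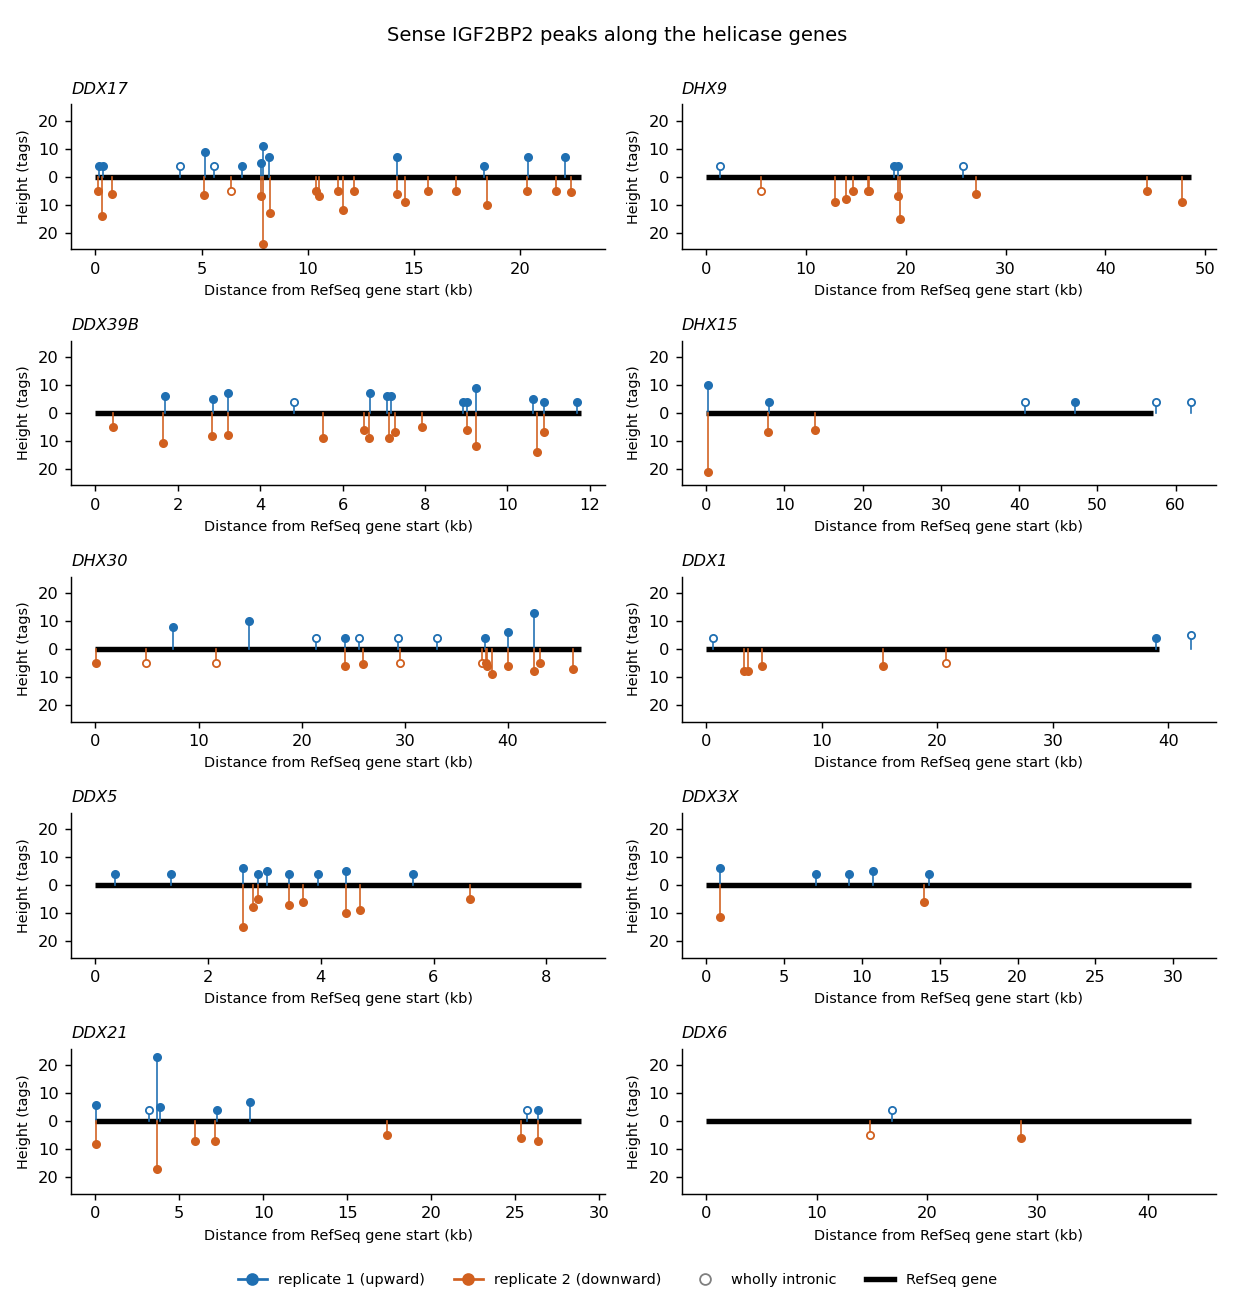
Sense peaks along each helicase gene by distance in kb from the RefSeq gene start, with height in tags upward for replicate 1 (blue) and downward for replicate 2 (orange), open circles for peaks wholly in an intron and a black line for the RefSeq gene. The tall pairs of DDX21, DDX17 and DHX15 mirror each other across the line, at 3655, 7886 and 229 nt from the start.

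DDX39B, known as UAP56, takes part in spliceosome assembly and in loading mRNA for export. It had the densest peaks, 13 and 14 in a gene of 11.778 kb, or 11.0 and 11.9 per 10 kb. Heights ran from 4 over a median of 5 to 9 tags in replicate 1 and from 5 over a median of 8.17 to 14 tags in replicate 2. Of the peaks, 6 in each replicate were noncoding exon, 5 and 6 were CDS and 1 and 2 were intron, and 7 in each overlapped the other replicate. A noncoding exon here is exon sequence that the authors' annotation gives to transcripts without a reading frame at that place.

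The highest shared peak of DDX39B, at chr6:31532750-31532800, had 9 and 12 tags and was 42% CDS and 58% noncoding exon. Shared CDS peaks at chr6:31538750-31538800 had 7 and 8 tags, and near the start 6 tags at chr6:31540300-31540350 against 10.7 tags over a longer peak. All 7 shared peaks of DDX39B were higher in replicate 2. A peak of 14 tags in replicate 2, at chr6:31531250-31531300, had no partner in replicate 1. DDX39B hosts the small nucleolar RNAs SNORD117 and SNORD84, which were under no peak. A peak of 9 tags in replicate 2, at chr6:31536450-31536500, lay next to SNORD117, with a fraction of 0.98 in intron.

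DHX15 releases the spliced-out intron from the spliceosome so that its parts can be used again. It had 6 and 3 peaks, and 2 in each replicate were shared. The taller pair, at chr4:24584300-24584350, stood at 10 tags in replicate 1 and at 21 in replicate 2. It lay 229 nt from the start of a gene of 57.08 kb and was 56% CDS and 44% intron. In replicate 1, 2.73% of sense peaks were as high, and in replicate 2 0.840%. The other pair, at chr4:24576550-24576600 in replicate 1, was wholly CDS with 4 and 7 tags. The remaining 4 peaks of replicate 1 were at 4 tags, and 3 of the 6 were wholly intronic.

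DDX21 is a nucleolar helicase that serves ribosomal RNA transcription and processing. It carried the shared peak with the greatest lower height of the 10 genes, at 23 tags in replicate 1 and 17 in replicate 2, on chr10:68959800-68959850, 3655 nt from the start and 90% CDS. Only 0.136% of the sense peaks of replicate 1 and 1.74% of those of replicate 2 were as high. This pair was one of 5 on the helicases that were higher in replicate 1. The other peaks of the gene were far lower, up to 7 and 8.33 tags. The gene had 8 and 7 peaks, 3 of them shared in each replicate.

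A second shared peak of DDX21, at chr10:68956150-68956300, spanned the RefSeq start whose first 30 bases are printed above. It covered the same bins in both replicates with 5.67 and 8.33 tags, and was 50% CDS and 37% 5′ UTR. The third, at chr10:68982500-68982550 with 4 and 7 tags, was 84% intron and 16% CDS. In replicate 2, 6 of the 7 peaks crossed an exon and intron edge, against 3 of 8 in replicate 1.

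DDX3X helps the ribosome through structured 5′ UTRs during translation initiation. It had 5 peaks in replicate 1, of 6, 5, 4, 4 and 4 tags, and 2 in replicate 2, of 11.5 and 6 tags. The shared peak lay in the 5′ UTR, at chrX:41334150-41334200 with 6 tags in replicate 1 and over 1 bin more with 11.5 tags in replicate 2. It lay 867 nt from the outermost RefSeq start of the gene and covered another RefSeq start further in, whose first bases are printed above. DDX3X was the only helicase whose highest shared peak was wholly 5′ UTR. All DDX3X peaks of both replicates held exon bases over their whole length.

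DHX30 acts in the RNA granules of mitochondria and in the assembly of their ribosomes. It had 10 and 14 peaks, with 3 shared in each replicate. The highest pair, at chr3:47845650-47845700, stood at 13 tags in replicate 1 and at 8 in replicate 2 and was 98% noncoding exon. A second pair at chr3:47843100-47843150, 90% CDS, had 6 tags in both replicates. In replicate 1 a peak of 10 tags at chr3:47818000-47818050, with a fraction of 0.58 in CDS, stood without a partner. Wholly intronic peaks made up 4 of 10 and 4 of 14, and none of these was shared. The gene hosts MIR1226, which was under no peak, and a peak of 7 tags in replicate 2 ended 55 nt before it.

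DDX6 activates the removal of the mRNA cap and represses translation in P-bodies, and DDX1 belongs to the complex that ligates tRNA. Neither had a shared peak. DDX6 held 1 peak of 4 tags in replicate 1 and peaks of 6 and 5 tags in replicate 2. In a gene of 43.982 kb this came to 0.227 and 0.455 peaks per 10 kb, of which the second is close to the median of the named genes. Its only peak with exon bases was the one of 6 tags, at chr11:118763200-118763250 with a fraction of 0.78 in CDS. DDX1 had peaks of 5, 4 and 4 tags in replicate 1 and of 8, 8, 6, 6 and 5 tags in replicate 2. In replicate 2, 4 of the 5 reached into exons, and the 2 of 8 tags lay within the first 3607 nt of the gene. In replicate 1 the sole exonic peak, of 4 tags, was 38907 nt from the start.

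By their main region, the helicase peaks fell into coding sequence in 28 of 72 cases in replicate 1 (38.9%, 95% Wilson interval 28.5 to 50.4) and 39 of 87 in replicate 2 (44.8%, 34.8 to 55.3). Averaged over the libraries this came to 41.9% ± 4.20 (SD, n = 2). The gap of 5.94 percentage points lies between libraries and not conditions, and did not pass a two-sided Fisher's exact test (p = 0.519). Its direction turned where both lists began at 5 tags, to -5.17 points, and at 10 tags, to -10.0 points. Among all named genes the CDS shares were 24.9% and 30.6%. Intron was the main region of 30.6% and 31.0% of helicase peaks, against 64.1% and 57.5%. Noncoding exons took 18.1% and 17.2%, against 3.15% and 3.39%, and 22 of the 28 such peaks were on DDX39B, DDX5 and DDX17. In 5′ UTRs lay 4 and 2 peaks (5.56% and 2.30%, against 3.41% and 3.92%), and in 3′ UTRs 5 and 4 (6.94% and 4.60%, against 4.42% and 4.65%), so that UTR shares were near those of the named genes. These intervals hold the counting error of peaks alone.

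Many peaks counted as intronic reached into an exon. Exon bases were found in 55 helicase peaks of replicate 1 (76.4%) and 79 of replicate 2 (90.8%), against 43.6% and 52.2% for the named genes. Noncoding exons count as exon bases here, so these shares and the intron shares depend on the authors' annotation. The 17 and 8 peaks that lay wholly in introns were low, with at most 5 tags in both replicates. Peaks that held both CDS and intron bases, and so lay across an edge, were 15 of 72 in replicate 1 (20.8%, 13.1 to 31.6) and 40 of 87 in replicate 2 (46.0%, 35.9 to 56.4). The named genes had 19.3% and 25.1%. The lists do not start at the same height, and with peaks under 5 tags left out replicate 1 had 11 of 30 across an edge (36.7%), near the 34.6% of the named genes. DHX9, DDX17, DDX39B and DDX21 held 29 of the 40 edge peaks in replicate 2, and DDX5 and DDX3X had none in either replicate by this count. Peaks split between CDS and noncoding exon, which both of these genes had, were not counted as edge peaks.

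Of the helicase peaks of replicate 1, 29 of 72 were overlapped by a peak of replicate 2 (40.3%, 29.7 to 51.8), where the share was 19.9% over all named genes. Of those of replicate 2, 29 of 87 were overlapped (33.3%, 24.3 to 43.8), against 18.2%. In each replicate, 8 of the 29 overlapped peaks were on DDX17 and 7 on DDX39B. Among peaks of at least 5 tags in both lists, 19 of 30 helicase peaks of replicate 1 overlapped (63.3%), against 39.4% for the named genes. CDS peaks overlapped in 57.1% (39.1 to 73.5) and 51.3% (36.2 to 66.1) of cases, against 45.7% and 35.0% for the named genes, of which the first lies within the interval. All 29 pairs had exon bases in both replicates. Among peaks with exon bases, a split chosen after seeing the data, 52.7% (39.8 to 65.3) and 36.7% (26.9 to 47.7) were overlapped. The named genes had 41.4% and 31.5% there, both within these intervals. Of the wholly intronic peaks 0 of 17 and 0 of 8 were shared, which allows shares of up to 17.6% and 37.5% by a limit of 3 counts of the total, and the named genes had 3.34% and 3.60%. Among the high peaks, a partner was found for 4 of 5 in replicate 1 and for 10 of 14 in replicate 2, or 80.0% and 71.4%, near the 74.5% and 62.9% of the named genes, and all of them held exon bases, as did 1821 of 1872 and 6072 of 6330 high peaks of the named genes.

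Within the 29 pairs, 23 peaks were higher in replicate 2, 5 in replicate 1 and 1 was equal. The median ratio of replicate 2 to replicate 1 was 1.5, from 0.615 at the DHX30 noncoding exon peak to 3.5 near the start of DDX17. Over all 8370 pairs of sense peaks that covered the same bins the median ratio was 1.43, and 13.3% were higher in replicate 1. The 16 helicase pairs that covered the same bins had a median ratio of 1.44. DDX17 held 3 of the 5 pairs that were higher in replicate 1, with 7 and 5, 7 and 6, and 9 and 6.5 tags.

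**Figure D3:**
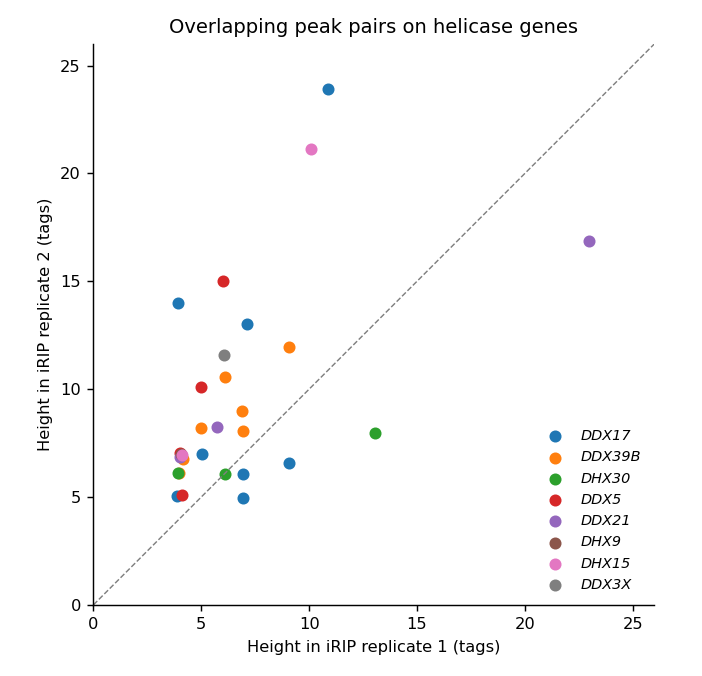
Height in tags of the 29 overlapping peak pairs on 8 helicase genes, replicate 1 on the horizontal and replicate 2 on the vertical axis, with points shifted slightly for sight and a dashed line at equal height. The pairs higher in replicate 2 number 23, and the pair of DDX21 at 23 and 17 tags lies furthest along the horizontal axis.

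The other members of the helicase families and their relatives made a list of 51 genes, of which 45 could be named. A sense peak in both replicates was found on 37 of the 45, an overlapping pair on 20 and high peaks in both on 4. Over all named genes these shares were 68.8%, 23.7% and 5.93%. A gene needed a sense peak to be named, so genes without any are not among the 45. The median number of peaks on the 45 was 3 and 4, against 2 in each replicate for all named genes. The tallest shared peak was on EIF4A1, the helicase of the cap-binding complex, with 15 and 20 tags. DDX54, a nucleolar helicase, followed with 13 tags in both replicates, and DDX23, the helicase of the U5 small nuclear ribonucleoprotein, with 13 and 10 tags. DDX39A, the paralog of DDX39B, had 9 and 15 tags at a peak that was mainly 5′ UTR. DDX11, a DNA helicase of sister chromatid cohesion, had 8 and 9 tags, and DDX18, which serves ribosome assembly, 9 and 8. No peak of either strand lay on DDX20, DDX53, DHX58 or DQX1. DDX60L and DHX32 could not be tied to an identifier and have no value here.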

How the data were processed

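Peaks of 2 IGF2BP2 iRIP libraries from Jurkat cells were used, and the 2 input libraries were not analysed here. Per the methods and the submitters' processing notes, 150 bp read pairs were demultiplexed with bcl2fastq and aligned with TopHat2 to GRCh38, uniquely mapped reads were kept, and ABLIRC called peaks per library, with 500 simulations and a p value under 0.05. Per the methods, peaks that overlapped input peaks were removed, and whether the lists used here follow that step was not checked. The annotation behind the regions is not given in the sources used here. The deposited height is a signal in tags, not adjusted for depth, and tags times the number of 50-nt bins was whole within 0.01. The p-value of each peak is the authors' own and served only as a filter. Length and region shares are also as deposited.

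Identifiers were named by position and strand from a RefSeq table (GRCh38.p14) when a single gene held at least 80% of the peaks, with a margin of 1000 nt. Where the table gave no strand, either strand was allowed. A peak belonged to the region with the largest share of its length. Positions were read as half-open, and overlap needed at least 1 bp on the same strand. The peaks named were the highest shared peak of each helicase by the lower height, unshared peaks of at least 10 tags and, among the other helicases, the highest 5 shared peaks, of which the last place was tied, and those without a peak. Further peaks named were chosen after their values were seen. The members and lists were chosen with earlier results of these data known. Shares carry 95% Wilson intervals, and CDS shares were compared with a two-sided Fisher's exact test. Alternatives were minimum heights, a p value under 0.001, exonic peaks, gene intervals, weighting by length, other overlap rules and leaving out each replicate. The functions were tested on simulated data. Python 3.11.15 was used with numpy 2.4.6, pandas 2.3.3, scipy 1.17.1 and matplotlib 3.10.9.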

Additional observations from a re-analysis of the deposited data

Results flagged for a closer look

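Peaks on the opposite strand were outside the counts of the report. In all, 4 antisense peaks carried a helicase identifier, each of 5 tags. DDX1 had one in replicate 1, at chr2:15591300-15591350, and one in replicate 2, at chr2:15604900-15604950. DDX6 had one in replicate 1, at chr11:118766150-118766200, and DHX30 one in replicate 2, at chr3:47822400-47822450. They were listed because they are a signal in peaks that no comparison used. None recurred in the other replicate.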

How the results depend on the processing

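Sequencing depth is unknown, and the lists begin at 4 and 5 tags, so low peaks of replicate 1 cannot find a partner of the same height. Of 45 recomputed values, 31 were called unchanged. For this, counts had to stay within a set fold of the first value, and the overlap within its Wilson interval. CDS shares had to stay within the SD between replicates. The difference in CDS share had to keep its sign and, where tested, its test outcome. With at least 10 tags, the mean number of peaks was 9.5, the CDS share 55.0%, the difference in CDS share -10.0 points (two-sided Fisher's exact p = 1), the overlap 60.0% and the helicases with a shared peak 3. With peaks under 5 tags left out, the CDS share was 47.4% and the overlap 63.3%, and the difference was -5.17 points (two-sided Fisher's exact p = 0.674). A p value under 0.001 left a mean of 29.5 peaks, and exonic peaks alone gave a CDS share of 60.5%. High peaks in both replicates stood on 5 helicases at 8 tags and on 1 at 15 tags. Without each replicate in turn, the number of peaks was 72 to 87 and the CDS share 38.9% to 44.8%. Chosen after seeing the data, counting any CDS bases gave 67.3%, and the overlap among peaks with exon bases was 52.7%. The edge share, 33.4% as a mean of the replicates, was 41.3% with at least 5 tags and 68.6% with at least 10. For the changes beyond the height and peak sets themselves, the cause was not tested. No paired analysis was possible because the inputs, which share replicate numbers with the iRIP libraries, have no values in the files used here.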

Other observations

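A few peaks that carry a helicase identifier lay outside the RefSeq interval of the gene. DHX15 had 2 in replicate 1 and DDX1 had 1 in replicate 1. All 3 were called intronic by the authors, with 4 tags on each DHX15 peak and 5 on the DDX1 peak, and none was shared.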
